A study of Rattus norvegicus with 15 samples.

Results

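Epoxide hydrolases, aldehyde dehydrogenases and carbonyl-reducing enzymes were examined in rat liver through 10 genes chosen by name: Ephx1, Ephx2, Aldh1a1, Aldh1a7, Aldh1b1, Aldh2, Akr7a3, Akr1b8, Cbr1 and Cbr3. Every non-control probe named after one of them was taken, which gave 11 of 41012 probes and 10 of 16147 named genes. Cbr1 had 2 probes and each other gene had 1. Expression was read from 1 one-colour array for each liver, taken from female Wistar rats of the Crl:WI stock that were 2 to 3 months old and weighed 225 to 250 g. The fipronil group (n = 8) received this phenylpyrazole insecticide, a blocker of insect GABA-gated chloride channels, orally for 14 days, at 3 mg/kg each day. The vehicle group (n = 7) received aqueous methylcellulose 0.5% with Tween 80 0.01% over the same 14 days. RNA came from the large lobe of the liver, so fewer cells of a type and less RNA per cell cannot be told apart in these values.

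These enzymes handle the reactive products of oxidative metabolism. Cytochromes P450 convert many foreign compounds and fatty acids into epoxides, which epoxide hydrolases open with water to give diols. Aldehydes, from the diet, from lipid peroxidation and from retinol, are oxidised to acids by aldehyde dehydrogenases or reduced to alcohols by aldo-keto reductases and carbonyl reductases. In liver the genes of several of them are known to respond to the xenobiotic receptors CAR and PXR, to the aryl hydrocarbon receptor or to the oxidative stress regulator NRF2.

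Ephx1, Aldh1a1 and Akr7a3 were higher in fipronil rats, and no member was lower at the same threshold. Of the 11 probes 3 passed an adjusted p of 0.05, against 0.821% of the 23256 probes tested in either direction, 0.533% higher and 0.288% lower. The members were chosen with earlier results of these data known, so this contrast is not a test of the family. The other 8 probes did not pass. The median log2 difference, fipronil minus vehicle, was -0.03 over the 11 probes and -0.02 over all probes tested. All values below are signals, meaning log2 intensity after subtraction of the array's own 75th percentile, and a difference of 1 on this scale is a doubling. Tests were limma's moderated test over all probes with Benjamini-Hochberg adjustment, and none of the 11 probes was saturated on any array. A signal ranks rats for 1 probe and does not rank genes, since probes differ in how brightly they hybridise.

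**Figure D1:**
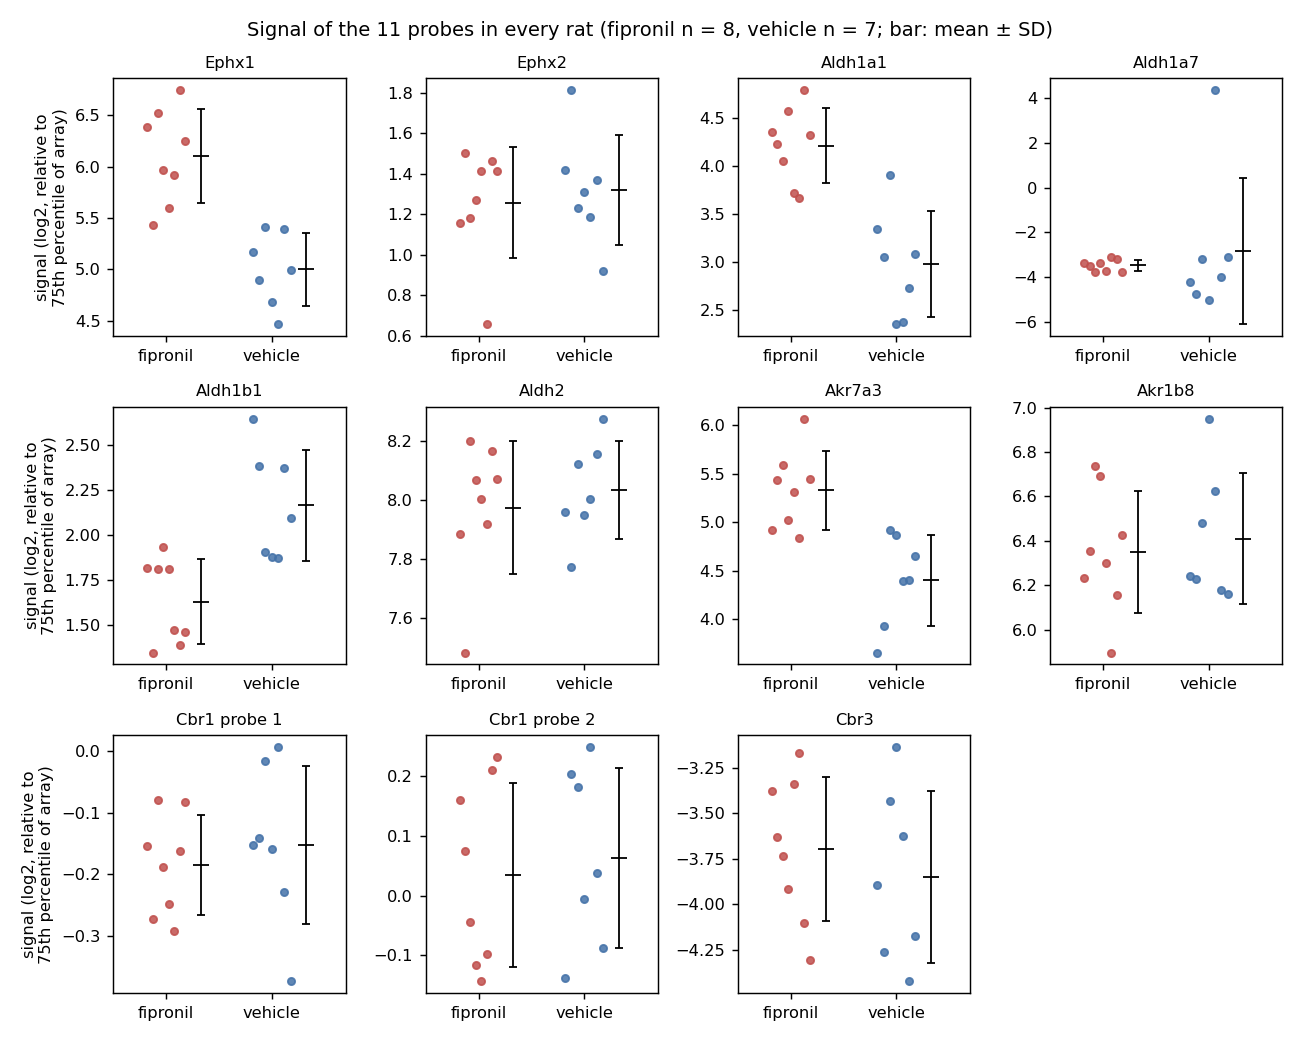
Signal (log2 intensity minus the 75th percentile of its array) of the 11 probes, 1 point per rat, fipronil (n = 8) left of vehicle (n = 7), with mean ± SD beside the points; each panel has its own axis. Ephx1 is the panel without overlap between groups, and Aldh1a7 has 1 vehicle rat at 4.36 above 14 arrays at -3.10 or lower.

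**Figure D2:**
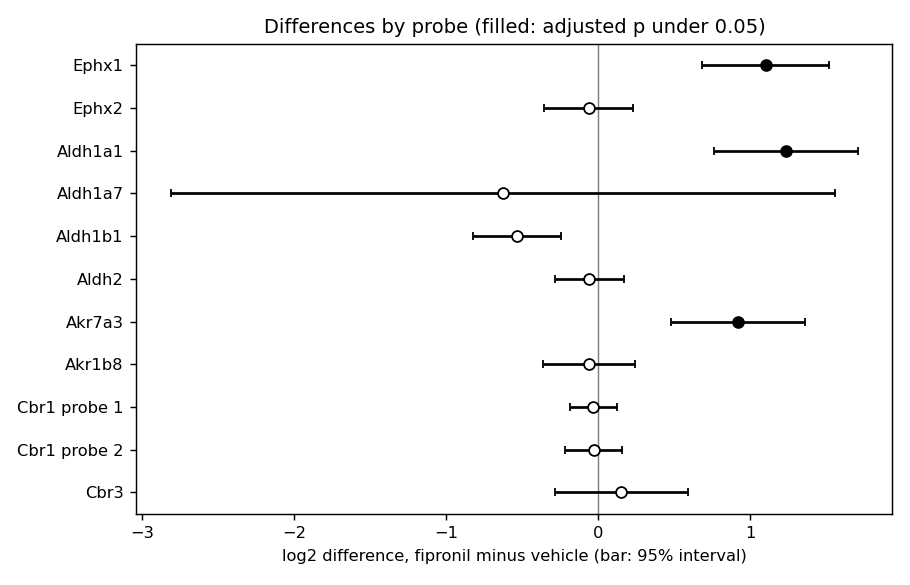
Fitted log2 difference, fipronil minus vehicle, of each probe with its 95% interval; filled points passed an adjusted p of 0.05. Ephx1, Aldh1a1 and Akr7a3 lie at 1.10, 1.24 and 0.92, and the Aldh1a7 interval runs from -2.81 to 1.56.

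The 4 promoters of the 3 genes that passed are shown because all of these genes were higher, with sequences from RefSeq on build GRCr8, 250 bases before to 50 after each start, 5′ to 3′ on the gene's strand. Capitals mark matches, on either strand, to TGACNNNGC (core of the antioxidant response element that NRF2 binds), AGTTCA or AGGTCA (half-sites of nuclear receptors) or GCGTG (core of the element that the aryl hydrocarbon receptor binds). Ephx1 has 2 start sites in the table, at chr13:95275803-95276102 and chr13:95263068-95263367, both on the minus strand. Aldh1a1 is at chr1:227537370-227537669 and Akr7a3 at chr5:156876471-156876770, both on the plus strand.
Ephx1 promoter 1: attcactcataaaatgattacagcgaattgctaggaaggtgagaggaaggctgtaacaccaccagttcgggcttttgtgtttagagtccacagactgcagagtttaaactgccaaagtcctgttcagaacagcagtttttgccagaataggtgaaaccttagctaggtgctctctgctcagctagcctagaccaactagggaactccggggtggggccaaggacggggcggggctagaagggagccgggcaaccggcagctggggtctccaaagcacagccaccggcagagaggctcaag
Ephx1 promoter 2: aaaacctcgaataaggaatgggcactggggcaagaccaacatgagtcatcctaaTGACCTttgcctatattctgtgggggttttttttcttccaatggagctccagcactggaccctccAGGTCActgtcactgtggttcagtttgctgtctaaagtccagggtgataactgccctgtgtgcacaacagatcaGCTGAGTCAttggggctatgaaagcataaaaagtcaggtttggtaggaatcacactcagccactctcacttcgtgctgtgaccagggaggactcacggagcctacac
Aldh1a1: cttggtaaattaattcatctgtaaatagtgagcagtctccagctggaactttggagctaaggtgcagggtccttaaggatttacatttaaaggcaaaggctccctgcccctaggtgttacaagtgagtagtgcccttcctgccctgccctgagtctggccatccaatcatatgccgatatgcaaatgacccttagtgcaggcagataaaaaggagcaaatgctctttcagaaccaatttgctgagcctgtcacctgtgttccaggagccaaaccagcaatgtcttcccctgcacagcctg
Akr7a3: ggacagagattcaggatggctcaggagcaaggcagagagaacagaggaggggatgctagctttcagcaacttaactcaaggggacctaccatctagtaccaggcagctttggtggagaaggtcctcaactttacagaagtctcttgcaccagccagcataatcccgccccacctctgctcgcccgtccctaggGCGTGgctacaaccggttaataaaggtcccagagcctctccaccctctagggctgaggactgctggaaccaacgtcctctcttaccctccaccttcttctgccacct
The second Ephx1 promoter held TGACNNNGC on the opposite strand, its first base at -57 from the start site, and AGGTCA at -131 on the gene strand and at -196 on the opposite strand, with no overlap between matches. The Akr7a3 promoter held GCGTG at -57 on the gene strand. That of Cbr1, whose difference was -0.03, held GCGTG at -41 and -37 on the gene strand and at -71 on the opposite strand. The first Ephx1 promoter and that of Aldh1a1 held none of the 4 motifs in this window. Nor did those of Aldh1b1, Akr1b8 and Cbr3, which did not pass the test. Of 33469 rat promoters of the same length, 12.1% held TGACNNNGC, 14.5% AGTTCA, 16.2% AGGTCA and 29.7% GCGTG. A match of these letters is a description and not a binding site. Promoters were matched for 7 of the 10 members; Ephx2, Aldh1a7 and Aldh2 are named only.

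Ephx1 encodes microsomal epoxide hydrolase, the endoplasmic reticulum enzyme that turns epoxides of foreign compounds into diols. Its probe lies on chromosome 13 at 96729072 to 96729131 of build rn4. Signals of Ephx1 were 5.43 at the lowest, 6.11 at the median and 6.74 at the highest in fipronil rats, against 4.47, 4.99 and 5.41 in vehicle rats. All 8 fipronil rats lay above all 7 vehicle rats, a separation seen in this direction in 0.374% of the probes tested, although the nearest rats of each group differed by little. The means were 6.10 ± 0.45 in fipronil rats (SD, n = 8) and 5.00 ± 0.35 in vehicle rats (SD, n = 7), a log2 difference of 1.10 (SE 0.20, limma adjusted p = 0.0129) or 2.15-fold (95% interval 1.60 to 2.87). Within slides 1 to 4 the difference was 0.87, 1.20, 1.29 and 1.30, so the direction was the same on every slide. The call ended without slide 1 (1.18, limma adjusted p = 0.0985), without slide 2 (1.07, adjusted p = 0.0652) and without slide 4 (1.05, adjusted p = 0.121), fits that hold fewer rats.

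Ephx2 encodes soluble epoxide hydrolase, which hydrolyses epoxides of fatty acids. Its probe is annotated to chromosome 15 from 45535737 to 45538220, a span longer than the probe. Signals of Ephx2 were 0.66, 1.34 and 1.50 (lowest, median and highest) in fipronil rats and 0.92, 1.31 and 1.81 in vehicle rats, so the groups overlapped. The difference was -0.06 (95% interval -0.35 to 0.23, limma adjusted p = 0.863). Of the pair of epoxide hydrolases, the microsomal one therefore passed the test and the soluble one did not; the difference between the 2 changes was not tested.

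Aldh1a1 encodes a cytosolic aldehyde dehydrogenase that oxidises retinal to retinoic acid and also takes aldehydes from lipid peroxidation. Its probe lies on chromosome 1 at 223772858 to 223772917. Signals of Aldh1a1 were 3.66, 4.28 and 4.79 (lowest, median and highest) in fipronil rats and 2.35, 3.05 and 3.90 in vehicle rats. The ranges overlapped: 6 of 8 fipronil rats lay above the highest vehicle rat, and 6 of 7 vehicle rats lay below the lowest fipronil rat. Means were 4.21 ± 0.39 in fipronil rats (SD, n = 8) and 2.98 ± 0.55 in vehicle rats (SD, n = 7), a log2 difference of 1.24 (SE 0.22, limma adjusted p = 0.0141) or 2.35-fold (95% interval 1.69 to 3.27). This was the largest difference among the 11 probes. Within slides 1 to 4 it was 1.09, 1.18, 1.31 and 1.65. The call ended without slide 1 (1.30, adjusted p = 0.152) and without slide 4 (1.09, adjusted p = 0.244) in the limma fit.

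Aldh1a7, named Aldh1a4 in the array files, encodes a close relative of Aldh1a1 known in rat liver as the phenobarbital-inducible cytosolic aldehyde dehydrogenase, whose inducibility is inherited in some rat lines. Its probe lies on the same chromosome 1 at 223822773 to 223822832. Signals of Aldh1a7 were -3.78, -3.45 and -3.10 (lowest, median and highest) in fipronil rats and -5.04, -3.98 and 4.36 in vehicle rats. It exceeded background in all 8 fipronil rats and in 2 of the 7 vehicle rats. One rat, vehicle replicate 5, held the value of 4.36, whereas the 8 fipronil rats averaged -3.48 ± 0.26 (SD, n = 8) and the other 6 vehicle rats -4.06 ± 0.79 (SD, n = 6). With all rats the difference was -0.63 (95% interval -2.81 to 1.56, limma adjusted p = 0.807), and without vehicle replicate 5 it was 0.57 (SE 0.27, adjusted p = 0.287). The direction of the Aldh1a7 difference thus rested on this rat, and neither fit passed the test. The probe entered the test through the fipronil arrays. Without vehicle replicate 5, its difference is set against vehicle signals mostly at background.

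The Aldh1a7 spot had a median intensity between 66.0 and 81.5 on the fipronil arrays and between 57.0 and 70.0 on 6 of the vehicle arrays. On vehicle replicate 5 it was 3627, over a local background of 42.5. The pixels of the bright spot varied by 11.9% (coefficient of variation), and it carried neither an outlier nor a saturation mark. It stood 7.46 above the next array on the log2 scale, 176-fold, which ranked 1 of 40885 probes for the gap between the highest array and the next, ahead of a gap of 4.99. The nearest probe on the chromosome named in the files, AB072242 at 223861898 to 223861957, was well above background on 0 arrays. In the same rat Ephx1 and Aldh1b1 were the lowest of the 7 vehicle rats, at 4.47 and 1.87. Ephx2 and Aldh1a1 were the second lowest, at 1.19 and 2.38. Akr7a3, Aldh2 and Cbr3 ranked 3, 4 and 5 from the lowest, at 4.40, 8.00 and -3.63. Both Cbr1 probes were the highest of the vehicle rats there, at 0.0067 and 0.25, and Akr1b8 was the second highest, at 6.63.

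**Figure D3:**
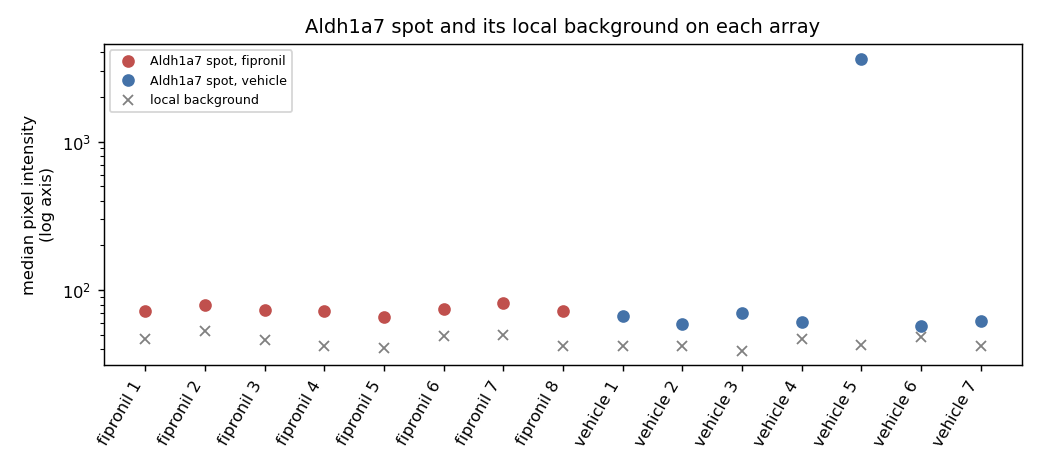
Median pixel intensity of the Aldh1a7 spot (log axis) and its local background on each array, fipronil arrays left of vehicle arrays. The spot reads 66.0 to 81.5 on fipronil arrays, 57.0 to 70.0 on 6 vehicle arrays and 3627 on vehicle replicate 5.

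Aldh1b1 and Aldh2 each encode a mitochondrial aldehyde dehydrogenase, and that of Aldh2 is the main enzyme of acetaldehyde oxidation. The Aldh1b1 probe lies on chromosome 5 at 62314783 to 62314842. Signals of Aldh1b1 were 1.35, 1.64 and 1.93 (lowest, median and highest) in fipronil rats and 1.87, 2.10 and 2.65 in vehicle rats. In 7 of 8 fipronil rats the signal lay below the lowest vehicle rat, and 4 of 7 vehicle rats lay above the highest fipronil rat. Means of Aldh1b1 were 1.63 ± 0.23 in fipronil rats (SD, n = 8) and 2.16 ± 0.31 in vehicle rats (SD, n = 7), and the difference of -0.53 (SE 0.14) did not pass (limma adjusted p = 0.0768). It was uneven between slides, at -0.93, -0.02, -0.23 and -0.81 within slides 1 to 4. Aldh2, on chromosome 12 from 36114847 to 36116140, had signals of 7.48, 8.04 and 8.20 (lowest, median and highest) in fipronil rats and 7.77, 8.00 and 8.28 in vehicle rats. These Aldh2 ranges overlapped, and the difference was -0.06 (95% interval -0.29 to 0.17, limma adjusted p = 0.828).

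Akr7a3 encodes aflatoxin aldehyde reductase, an aldo-keto reductase that in the rat reduces the dialdehyde of aflatoxin. Its probe lies on chromosome 5 at 158147285 to 158147343. Signals of Akr7a3 were 4.84, 5.37 and 6.07 (lowest, median and highest) in fipronil rats and 3.66, 4.41 and 4.92 in vehicle rats. The ranges met: 7 of 8 fipronil rats lay above the highest vehicle rat, and 5 of 7 vehicle rats lay below the lowest fipronil rat. Means were 5.33 ± 0.40 in fipronil rats (SD, n = 8) and 4.41 ± 0.47 in vehicle rats (SD, n = 7), a log2 difference of 0.92 (SE 0.21, limma adjusted p = 0.0499) or 1.90-fold (95% interval 1.40 to 2.57). The call stood at the threshold and was lost in 20 of 31 alternative settings, over which the difference was 0.73 to 1.12 and the adjusted p 0.0221 to 0.305. Within slides 1 to 4 the Akr7a3 difference was 1.38, 0.42, 0.67 and 1.23.

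Akr1b8 encodes an aldose reductase-like protein of the same superfamily. Its signals, from a probe annotated to chromosome 4 from 61724364 to 61725032, were 5.90, 6.33 and 6.74 (lowest, median and highest) in fipronil rats and 6.16, 6.24 and 6.95 in vehicle rats. The groups overlapped and the difference was -0.06 (95% interval -0.36 to 0.24, limma adjusted p = 0.876).

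Cbr1 and Cbr3 encode cytosolic carbonyl reductases, and that of Cbr1 reduces quinones, prostaglandins and ketone drugs. The first Cbr1 probe, on chromosome 11 from 33788251 to 33788780, gave -0.29, -0.18 and -0.08 (lowest, median and highest) in fipronil rats and -0.37, -0.15 and 0.0067 in vehicle rats. The second, at 33788792 to 33788851, gave -0.14, 0.02 and 0.23 in fipronil rats and -0.14, 0.04 and 0.25 in vehicle rats. Both Cbr1 probes overlapped between groups and both differences were -0.03 (95% intervals -0.19 to 0.12 and -0.22 to 0.16, limma adjusted p = 0.866 and 0.910). The Cbr3 probe, at 33921559 to 33921618 on the same chromosome, was dim and exceeded background in 6 of the 8 fipronil rats and 4 of the 7 vehicle rats. Signals of Cbr3 were -4.30, -3.68 and -3.17 in fipronil rats and -4.42, -3.89 and -3.14 in vehicle rats, a difference of 0.15 (95% interval -0.29 to 0.59, limma adjusted p = 0.758).

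**Figure D4:**
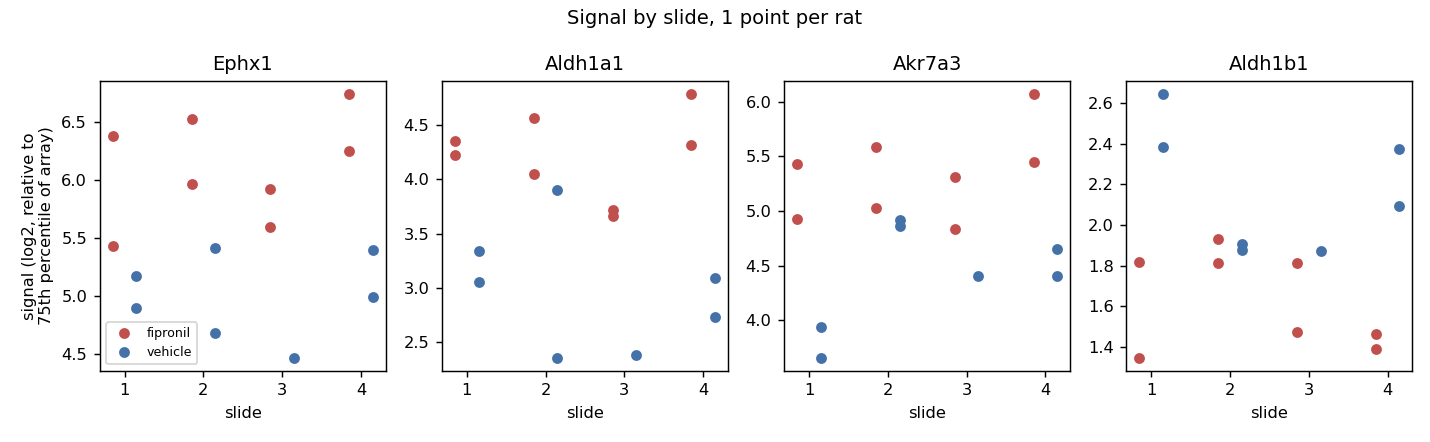
Signal (log2 intensity minus the 75th percentile of its array) of Ephx1, Aldh1a1, Akr7a3 and Aldh1b1 by slide, 1 point per rat, fipronil left of vehicle within each slide. Ephx1 and Aldh1a1 have a higher fipronil mean on each of the 4 slides, by at least 0.87 and 1.09, while Aldh1b1 differs by -0.02 on slide 2 and -0.93 on slide 1.

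Arrays of fipronil rats were brighter. The 75th percentile of intensity was 184.9 to 269.5 with fipronil and 115.4 to 214.4 with vehicle (exact permutation test, two-sided p = 0.0196, adjusted p = 0.0338 over 4 array measures). Probes well above background made up 55.3 to 59.5% with fipronil and 50.7 to 57.6% with vehicle. Within groups, the correlation of an array's brightness with the signal was -0.0010 for Ephx1, 0.24 for Aldh1a1 and 0.0085 for Akr7a3 over the 15 arrays. With brightness as a covariate the differences were 1.10 for Ephx1, 1.08 for Aldh1a1 and 0.92 for Akr7a3, and none of the 3 passed (limma adjusted p = 0.124, 0.202 and 0.276); that fit called 0.181% of the probes tested.

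Markers of liver cell types were measured beside the members. All 8 hepatocyte markers were well above background on every array, and their summed linear level (relative to the 75th percentile) was 1812 to 2683 in fipronil rats and 2269 to 3928 in vehicle rats. Probes of 7 of these 8 markers were saturated on some arrays, 5 of them on all 15, so the hepatocyte sums are bounded by the scanner and do not measure hepatocyte RNA. The sum over 5 endothelial markers was 67.3 to 128.4 in fipronil rats and 56.2 to 77.2 in vehicle rats. The sum over 7 Kupffer cell and macrophage markers was 54.8 to 123.4 in fipronil rats and 39.3 to 139.6 in vehicle rats. No tested marker of these or of the 5 other lists passed the limma test: stellate cell and fibroblast, cholangiocyte, T, B and NK cell, neutrophil, and erythroid. Not every marker was tested: 4 of 6 endothelial, 6 of 7 stellate cell and fibroblast and 4 of 5 cholangiocyte markers were. So were 2 of 6 T, B and NK cell, 2 of 4 neutrophil and 3 of 4 erythroid markers. Cd3e and Mpo were above background on no array. The part of cell makeup in the members' differences was not tested.

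Relatives of the members and neighbouring pathways were counted in the same fit, by 1 probe a gene. Of 88 different genes tested in 7 lists, 1 passed (1.14%), a share near the 0.821% of all probes tested. That gene was Rdh10, a retinol dehydrogenase that oxidises retinol to retinal. Signals of Rdh10 were 0.34, 0.74 and 0.87 (lowest, median and highest) in fipronil rats and -0.02, 0.16 and 0.29 in vehicle rats. The groups did not overlap, as in 0.374% of the probes tested with fipronil higher. The log2 difference was 0.55 (SE 0.09, limma adjusted p = 0.00639), 1.46-fold. The call held with brightness as a covariate (0.58, adjusted p = 0.0487) and ended without slide 1 (0.45, adjusted p = 0.159), slide 2 (0.56, adjusted p = 0.0525) or slide 4 (0.59, adjusted p = 0.0758). It was the 1 gene of 18 tested for retinoid handling that passed. In that list the median difference was 0.05, and the retinoic acid hydroxylase gene Cyp26a1 (0.26, adjusted p = 0.527) did not pass.

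The other families had no gene past the adjusted threshold, so only their values are given. Of 12 other aldo-keto reductases, 9 had an unadjusted p under 0.05, 8 of them higher and 1 lower, against 17.2% of all probes tested. Their median difference was 0.28, against -0.02 over all probes, and the smallest p belonged to the aldose reductase gene Akr1b1 (0.42, limma adjusted p = 0.135). Genes of the Akr1c group are close copies of each other, and the signal of 1 probe may hold RNA of several. Of 11 other aldehyde dehydrogenases, 4 had an unadjusted p under 0.05, 2 in each direction, with a median of 0.12. The smallest p there was that of Aldh1a3, another retinal dehydrogenase, whose probe exceeded background in 7 of the 8 fipronil rats and 1 of the 7 vehicle rats. It entered the test through the fipronil arrays, and its difference (0.93, limma adjusted p = 0.0789) is set against vehicle signals mostly at background.

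Of 16 other carbonyl and quinone reductases, 3 (18.75%) had an unadjusted p under 0.05, a share near the 17.2% of all probes tested. All 3 were higher, the list median was 0.05 and the smallest p belonged to Cbr4 (0.35, limma adjusted p = 0.134). Of 15 alcohol dehydrogenases and oxidases, 1 (6.67%) had an unadjusted p under 0.05, below the share of all probes. It was Sord, the sorbitol dehydrogenase gene (0.23, adjusted p = 0.174), and the list median was 0.03. Among epoxide hydrolases beside the members, 1 was tested, Lta4h, which makes leukotriene B4 (-0.01, adjusted p = 0.974). Of 16 other NRF2 targets, 7 (43.75%) had an unadjusted p under 0.05, against 17.2% of all probes tested, 5 higher and 2 lower, with a median of 0.15. The 2 lower were Ftl1, whose probe was saturated on all 8 fipronil and all 7 vehicle arrays, and Tkt, saturated on 8 fipronil and 3 vehicle arrays, so neither difference is a measure of its RNA. Gsr, the glutathione reductase gene, had the smallest p among them (0.49, limma adjusted p = 0.0543), and the quinone reductase gene Nqo1 differed by 0.23 (adjusted p = 0.744).

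**Figure D5:**
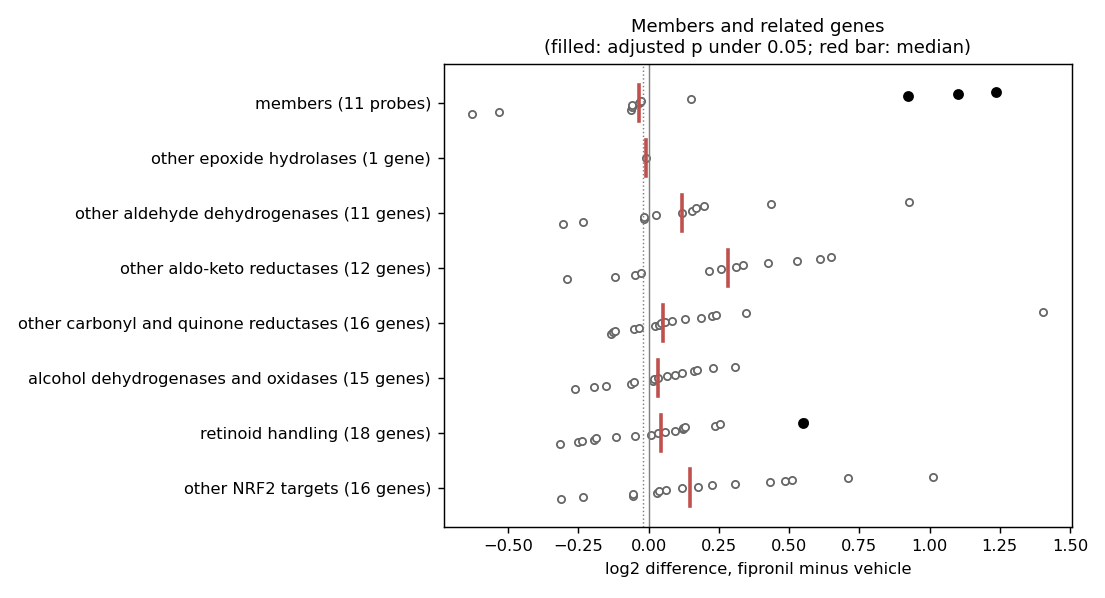
Fitted log2 difference, fipronil minus vehicle, of the 11 member probes and of the genes of 7 lists, 1 point per probe or gene; filled points passed an adjusted p of 0.05, red bars are medians and the dotted line is the median of all probes tested (-0.02). Apart from Ephx1, Aldh1a1 and Akr7a3, Rdh10 at 0.55 is the single filled point, and the aldo-keto reductases have a median of 0.28.

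Within groups, members were compared rat by rat as deviations from their group means. None of 45 pairs passed adjustment (permutation test, smallest adjusted p = 0.290). The furthest from 0 was Aldh1b1 with Akr7a3, at a Pearson r of -0.67 (permutation p = 0.0119, adjusted p = 0.290), a Spearman rho of -0.60 (permutation p = 0.0287, adjusted p = 0.646), -0.50 without the 2 rats farthest from the median and -0.74 within slides. Ephx1 with Aldh2 had an r of 0.61 (permutation p = 0.0193, adjusted p = 0.290) and a rho of 0.55 (permutation p = 0.0455, adjusted p = 0.682), and r was 0.36 without the 2 rats farthest from the median and 0.71 within slides. Ephx1 and Aldh1a1 had a Pearson r of 0.60 (permutation p = 0.0194, adjusted p = 0.290) and a Spearman rho of 0.61 (permutation p = 0.0175, adjusted p = 0.646) over 15 rats, and r was 0.62 without the 2 rats farthest from the median. The r of Ephx1 and Aldh1a1 was 0.52 in the 8 fipronil rats and 0.73 in the 7 vehicle rats, and 0.44 within slides. Among 13716 probes of other named genes, the genes whose deviations followed Ephx1 most closely over the 15 rats were Cep152, Itpr2 and Ttll9 (Pearson r 0.86, 0.84 and 0.83). For Aldh1a1 they were Lamc1, Or4a47 and Or2a57 (0.84, 0.81 and 0.79), and for Akr7a3 they were Mast4, Atp6v0d1 and Sdhaf2 (0.87, 0.84 and 0.83). None of these 9 genes passed the limma test between fipronil and vehicle rats. They were picked as the highest r among 13716 probes, and how high r runs through such picking alone was not tested. Likeness of this size is a description of 15 arrays that lie on 4 slides and differ in brightness.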

How the data were processed

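Liver RNA of integrity number above 8.7, 1 µg per rat, was labelled with Cy3 and hybridised to 1 array per rat, per the labels' protocols. The deposited array files hold spot intensity written by Agilent Feature Extraction 9.5.3.1, per the file headers. The processed intensity in them was background subtracted and detrended but not normalized between arrays. The deposited files also carry other values, 0 or 1 flags for saturation, outlier spots and signal well above background, per the file headers. The deposited series table holds log2 values of 22244 probes whose order on each array followed the median intensity; it was used as an alternative, and the authors' rule for choosing those probes is not given in the sources used here. Per the submitters' processing notes, limma and Feature Extraction 9.5 were used.

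Outlier spots were left out, spots of a probe averaged, and log2 processed intensity taken relative to the 75th percentile of non-control probes. Probes well above background on at least 7 arrays and missing on at most 3 were tested with the two-sided moderated test of limma 3.58.1 (lmFit, eBayes; R 4.3.3). The fit was tested on simulated data with independent noise for each probe. These held no slide or brightness effects, so the simulation does not bear on such effects. Spread between rats is given as SD, and SE belongs to the fitted difference. The number of arrays limits the precision. Alternatives changed the background correction, normalization, filter, slide and replicate blocks, weights and brightness, or left out 1 rat or slide.

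Probe coordinates are of build rn4, per the file headers. Probe sequences and an rn4 annotation were not used here, so the exon under a probe is not given and hybridisation of a probe to related genes was not examined. Gene names came from a RefSeq table (GRCr8). Aldh1a4 was taken as the older name of Aldh1a7. Members and lists were chosen with earlier results of these data known. Every member was named. Of each list, genes past the threshold were named, or the one with the smallest p where there was none, and Cyp26a1, Nqo1, Ftl1 and Tkt were added after their values were seen.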

Additional observations from a re-analysis of the deposited data

Results flagged for a closer look

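Among 30 groups of values examined for a single rat standing far from the rest of its group, 5 had one; chance alone is expected to give such a rat in about 1 of 20 groups. Vehicle replicate 5 had the highest Aldh1a7 signal of the 7 vehicle rats, at 4.36. Fipronil replicate 6 had the lowest Ephx2 signal of the 8 fipronil rats, at 0.66, and fipronil replicate 2 the lowest Aldh2 signal, at 7.48. The array of fipronil replicate 2 also had the highest 75th percentile of intensity in its group, 269.5. The array of vehicle replicate 7 had the lowest share of probes well above background in its group, 50.7%. None of these values was tested for a cause.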

How the results depend on the processing

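Over 31 alternatives the Ephx1 difference was 1.01 to 1.21 and passed in 27, and the Aldh1a1 difference was 1.08 to 1.39 and passed in 27. The number of member probes past the test was 3 in the main setting, 1 with the replicate block, 0 with array brightness as a covariate, 0 without slide 1, 1 without slide 2 and 0 without slide 4, and 2 to 3 when 1 rat was left out. Over all probes the count was 191 in the main setting, 90 with no filter on dim probes, 318 with slide as a random block, 97 with the replicate block (0.417% of probes), 42 with brightness as a covariate, 37 without slide 1, 45 without slide 4, and 102 to 307 when 1 rat was left out. Genes of the other lists past the test numbered 1 in the main setting. They numbered 2 after normexp and quantile normalization, on probes above background on all 15 arrays, with slide as a random block and with array weights, 3 without slide 3, 0 with the replicate block and without slides 1, 2 or 4, and 1 to 3 when 1 rat was left out. Fits without a slide hold fewer rats; for the other settings the cause was not tested.

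Replicate numbers are shared between the groups, but the labels state no pairing. Same-numbered rats deviated together with correlations of -0.04 to 0.37, not all above 0.1, and best matched their own number in 2 of 7 cases. The mean correlation with differently numbered rats was -0.06 to 0.01, below that with the same-numbered rat for every number but 6. Rats numbered 6 lay on different slides, whereas the other same-numbered rats shared a slide. Number and slide thus cannot be told apart here, and whether the numbers pair the samples was not settled. With the replicate block Ephx1 passed (1.08, limma adjusted p = 0.0211), whereas Aldh1a1 (1.22, adjusted p = 0.0509) and Akr7a3 (0.91, adjusted p = 0.0677) did not.

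Of the differences that did not pass, Aldh1b1 stayed below 0 in all 31 alternatives (-0.72 to -0.38), and the others changed sign in at least 1. With 1 rat left out, Ephx2 lay between -0.13 and 0.023, Aldh1a7 between -0.99 and 0.57, Aldh2 between -0.10 and 0.011, Akr1b8 between -0.12 and 0.030, and the second Cbr1 probe between -0.062 and 0.0025. Without slide 1, Ephx2 was 0.031 and Cbr3 -0.0030. Without slide 2, the second Cbr1 probe was 0.020. Without slide 3, which holds vehicle replicate 5, Aldh1a7 was 0.55, Akr1b8 0.060 and the Cbr1 probes 0.022 and 0.054. With brightness as a covariate Aldh2 was 0.079 and Cbr3 -0.0076, and with array weights Aldh2 was 0.016. The dim probes of Aldh1a7 and Cbr3 limit what their values show.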

Other observations

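Hsd11b1, which encodes the liver enzyme that regenerates active glucocorticoid by carbonyl reduction, had the largest difference among the 88 related genes and was singled out after its values were seen. Its signals were 2.55 to 5.49 in fipronil rats and 1.43 to 4.84 in vehicle rats, so the groups overlapped widely. The means were 4.11 ± 1.00 in fipronil rats (SD, n = 8) and 2.71 ± 1.46 in vehicle rats (SD, n = 7), and the difference of 1.41 (SE 0.57) did not pass (limma adjusted p = 0.228).

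Bco1, the gene of the enzyme that cleaves beta-carotene to retinal, varied far more between rats than between groups. Its means were 0.43 ± 1.18 in fipronil rats (SD, n = 8) and 0.30 ± 1.19 in vehicle rats (SD, n = 7), a difference of 0.13 (limma adjusted p = 0.937). The difference was 0.43 for Abcc2, a canalicular exporter of organic anions (limma adjusted p = 0.0763), and 1.01 for Abcc3, its basolateral relative (limma adjusted p = 0.0992); neither passed. These genes too were picked after their values were seen.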
